A study of Drosophila melanogaster with 6 samples.

Results

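Yorkie (Yki) occupied the intervals around the Notch receptor gene N, its ligand gene Dl and the Enhancer of split complex, E(spl), at 12 chromatin immunoprecipitation sequencing (ChIP-seq) peaks in Drosophila melanogaster embryos. These are the peaks, of 5136 in the deposited list, that overlapped at least 1 base of 3 fixed intervals of genome release 5. The intervals were X:3024000-3071000 for N, 3R:15145000-15185000 for Dl and 3R:21815000-21875000 for the complex, which holds the bHLH genes E(spl)mdelta-HLH, E(spl)mgamma-HLH, E(spl)mbeta-HLH, E(spl)m3-HLH, E(spl)m5-HLH, E(spl)m7-HLH and E(spl)m8-HLH. N had 5 peaks, Dl had 2 and the E(spl) complex had 5. They made up 0.377% of the 3182 peaks on the 6 chromosome arms 2L, 2R, 3L, 3R, 4 and X. Their scores ran from 28.81 to 227.55, and the highest belonged to Dl and the next to E(spl).

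Notch is a cell-surface receptor, and Delta, the product of Dl, is a membrane ligand on the neighbouring cell. When Delta binds, the intracellular part of Notch is cut free and joins the DNA-binding protein Su(H) to activate genes, of which the E(spl) genes are the classical set in the fly. The E(spl) bHLH proteins are repressors that bind the co-repressor Groucho, the product of gro, and keep cells from becoming neural precursors. Yki is the coactivator that the Hippo pathway restrains. It does not bind DNA itself and reaches it through partners such as Scalloped. In the fly, both pathways act in tissues such as the follicle cells of the ovary and the optic lobe.

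The embryos were 8 to 16 h old and came from 1 strain, Y cn bw sp. Per the labels, all of them carried y[1] and oc[R3.2], Gr22b[1] and Gr22d[1], then cn[1], bw[1] and sp[1] beside CG33964[R4.2], and LysC[1], MstProx[1], GstD5[1] and Rh6[1] beside lab[R4.2]. There were 3 libraries of chromatin precipitated with Yki91, an unpurified rabbit polyclonal antiserum against the whole Yki protein, and 3 libraries of input DNA, that is, of genomic DNA that was not precipitated. Crosslinking was with 1.8% formaldehyde for 15 min. No treatment and no Yki mutant is among these groups, and whole embryos were used, so a peak cannot be placed in a cell type.

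The data are 1 peak list for all 6 libraries, with a start, an end and the authors' score for each peak. What the score measures was not stated by the labels or the file, so scores are compared only within the list. Values for single libraries were not part of it. The depth is unknown, no difference below has a replicate error or a test, and every comparison with the other peaks is a description. The intervals were proposed with results of this list known, so a contrast with the background is no independent evidence about these genes. All positions are 1-based release 5 coordinates as deposited.

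The genes themselves could be placed only by their order. In the RefSeq gene table, which follows Release 6, all 9 of the genes named above were found. From E(spl)mdelta-HLH to gro the table lists 19 genes, 13 of them protein coding and 6 for long noncoding RNAs. The protein-coding genes run in the order E(spl)mdelta-HLH, E(spl)mgamma-HLH, E(spl)mbeta-HLH, E(spl)malpha-BFM, Kaz-m1, E(spl)m2-BFM, E(spl)m3-HLH, E(spl)m4-BFM, E(spl)m5-HLH, E(spl)m6-BFM, E(spl)m7-HLH, E(spl)m8-HLH and gro. The 4 BFM genes encode Bearded family proteins, which inhibit Delta internalisation by the ubiquitin ligase Neuralized. N lies between CG4116 and CG18508, which is followed by Fcp3C, CG3939 and dnc, the gene of the cAMP phosphodiesterase Dunce. The nearest neighbours of Dl are CG44174 on one side and noncoding RNA genes on the other. Release 5 exons and start sites were not used here, so a peak is assigned to an interval and not to 1 of its genes, and no peak sequence is shown.

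At the receptor gene N, Yki peaks were spread over nearly the whole interval, with no single dominant site, and 3 of the 5 were in the highest-scoring 25% of the list. The first peak, at X:3028619-3029389, was 771 bp wide and had a score of 73.67. The second, at X:3030364-3030865, lay 0.974 kb further on, with 502 bp and a score of 48.91. The third, at X:3036147-3036497, was the weakest and narrowest of the 5, with 351 bp and a score of 28.81. These 3 formed a group at the low-coordinate end, and the other two stood apart from it. The fourth peak, at X:3056145-3057187, followed a stretch of 19.6 kb without a peak and was the widest at N, with 1043 bp and a score of 102.08. The fifth, at X:3069721-3070535, had the highest score, 114.86, with 815 bp. The highest score was 1.13 times the second and 3.99 times the lowest.

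The strongest N peak lay close to a border. It ended 0.465 kb inside the interval, and the next peak along X, outside it by 2.74 kb, scored only 9.11. It and the other 3 peaks of that flank of 100 kb, with scores of 8.64, 13.97 and 34.9, were all weaker than 4 of the 5 N peaks. On the low-coordinate side there was none for 344 kb, from X:2684456 to X:3028618. That stretch was the longest between neighbouring peaks on X and ranked 7 of 3176 on the 6 arms. It was noticed after its length was seen.

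At the ligand gene Dl, the scores were dominated by 1 strong peak. It lay at 3R:15147491-15148251, 2.49 kb from the low-coordinate border, was 761 bp wide and scored 227.55. That put it at rank 24 of the 737 peaks of 3R and at rank 109 of the 6 arms, where 3.39% of peaks scored higher. The other peak, at 3R:15151846-15152132, began 3.59 kb further on, was 287 bp wide and scored 34.24. The strong peak scored 6.65 times the weak one. The remaining 32.9 kb of the interval held no peak, and the next one on 3R, at 15289038, scored 45.84. The stretch between them was 137 kb, and on the other side 70.6 kb separated the strong peak from one that scored 11.11.

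**Figure D1:**
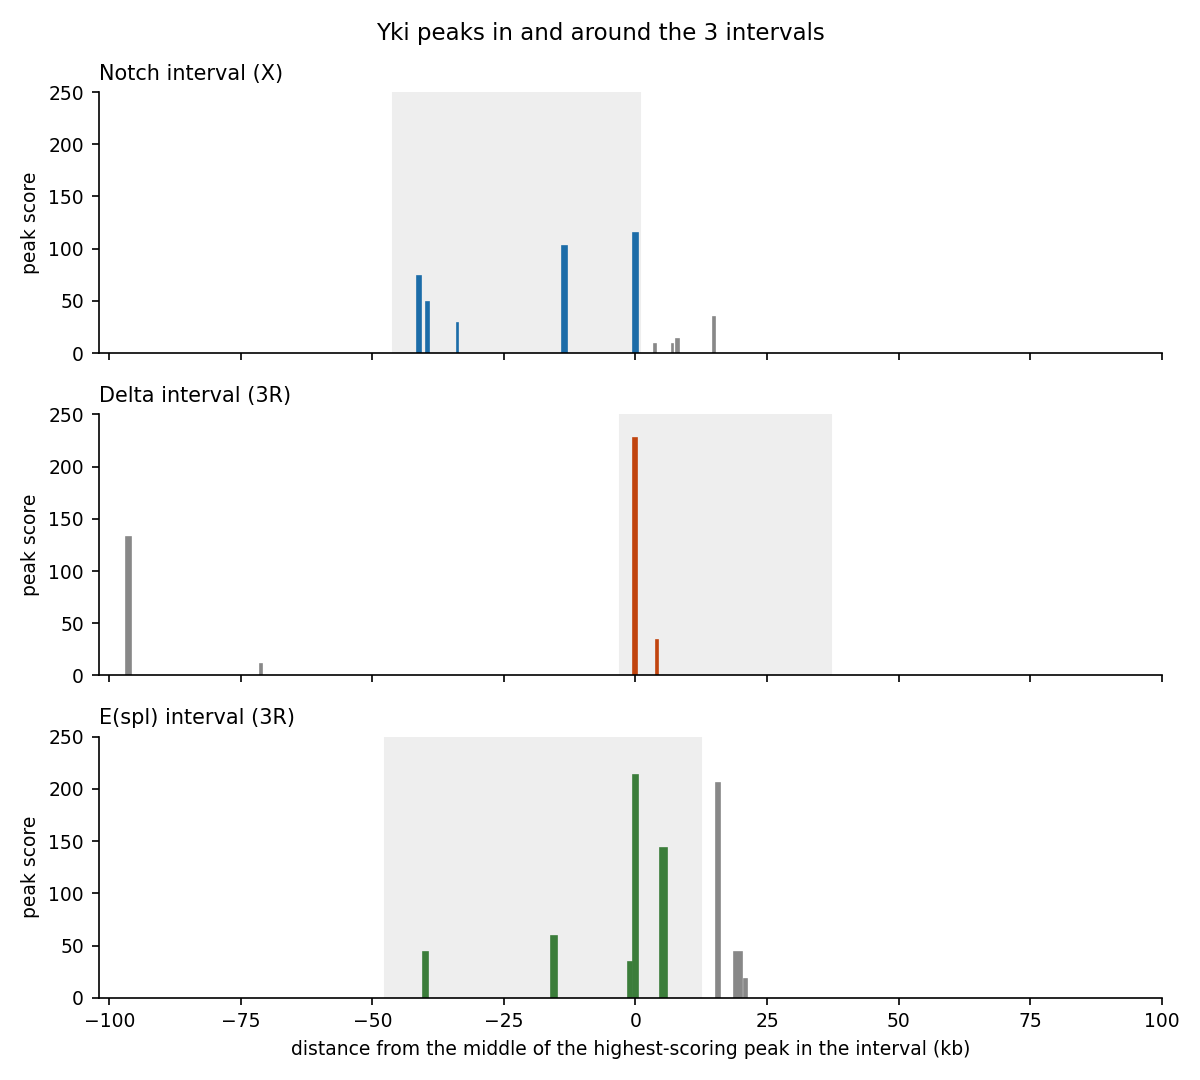
Yki peaks in the Notch, Delta and E(spl) intervals (coloured bars) and in the flanks of 100 kb (grey bars). Grey shading marks the interval, bar height is the peak score and bar width is the peak width plus a thin outline. The plotted range ends before the far ends of the flanks, so these are not shown in full. The x axis is the distance in kb from the middle of the highest-scoring peak of the interval. Scores at Notch lie between 28.81 and 114.86, Delta has 1 dominant peak of 227.55, and the 2 strongest E(spl) peaks, 212.9 and 143.4, lie at the same end of the complex.

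In the E(spl) complex, the strong peaks lay together in the high-coordinate part, and weaker but wide peaks marked the rest. The first peak, at 3R:21822178-21823146, was 969 bp wide and scored 43.89. The second, at 3R:21846504-21847724, came after 23.4 kb without a peak, with 1221 bp and a score of 58.91. Both were wide for their scores, since 10.9% and 7.04% of arm peaks were wider while 38.2% and 29% scored higher. After another 13.5 kb without a peak came 3 peaks within 7.38 kb. The first of them, at 3R:21861224-21861975, scored 34.1. Only 173 bp separated it from the highest peak of the complex, at 3R:21862149-21863101, with 953 bp and a score of 212.9. The last, at 3R:21867339-21868600, was the widest of all 12 members, with 1262 bp, and scored 143.4. The highest score was 1.48 times the second and 6.24 times the lowest, and 3.9% of arm peaks scored above it.

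A further strong peak lay just outside the E(spl) interval. At 3R:21877859-21878691, 2.86 kb beyond the border, it scored 206.07, close to the highest peak of the complex. The 2 weaker peaks after it, with scores of 43.55 and 18.29, began 6.35 and 8.23 kb beyond the border. In gene order gro is followed by Exo84, Vps2, Cmpk and Sld5, and which of these genes the outer peaks belong to was not tested. On the other side, no peak lay between the first E(spl) peak and a peak of score 9.05 that ended at 21714352, a stretch of 108 kb.

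As a set, the 12 peaks had a median score above that of the list, but their scores reached down to its middle. The weakest peaks of N, Dl and E(spl) had 52.3%, 45.9% and 46% of arm peaks scoring above them. Of the 12, 11 scored above the median of the whole list, 30.1, as did 50.5% of all arm peaks. The exception was the third N peak, at 28.81. In the highest-scoring 25% (above 72.8) there were 6 of 12, compared with 23.6% of arm peaks. These were 3 at N, 1 at Dl and 2 in the E(spl) complex, and the first N peak passed narrowly, at 73.67. In the highest-scoring 10% (above 133) there were 3, the strongest peak of Dl and 2 of E(spl), compared with 10.8% of arm peaks. The median score was 66.3, against 30.7 over the 6 arms, 30.4 on X and 33.4 on 3R. By locus, the median was 73.7 at N and 58.9 in the E(spl) complex, and their ranges overlapped.

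**Figure D2:**
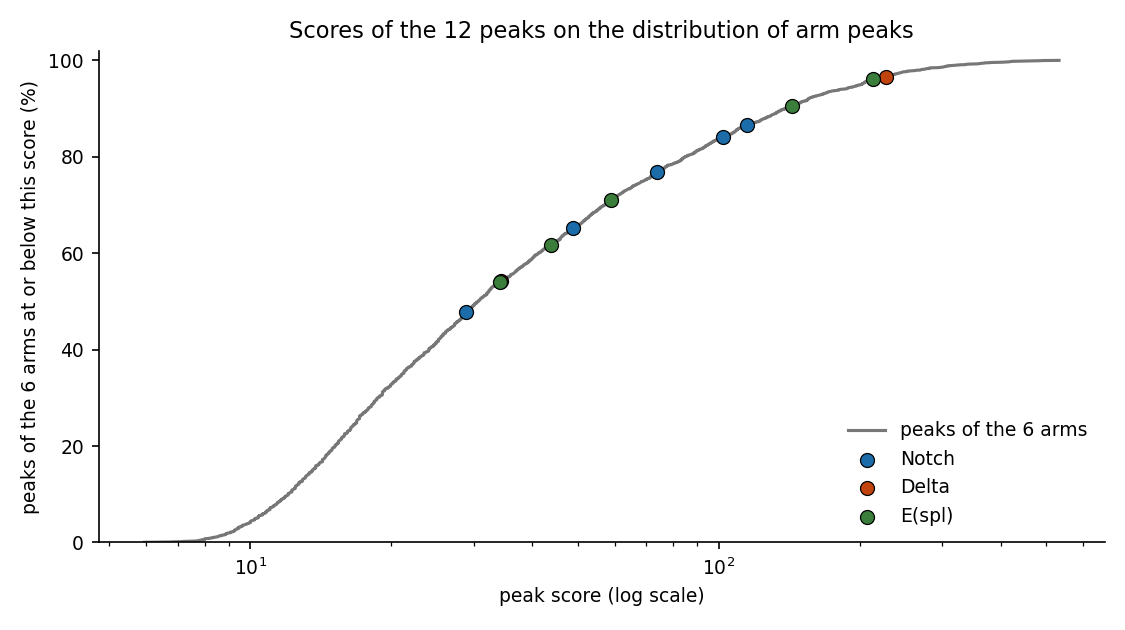
Cumulative distribution of scores over the 3182 peaks of the 6 arms (grey line; x axis, peak score on a log scale; y axis, percent of peaks at or below that score), with the 12 peaks of the Notch, Delta and E(spl) intervals as points. The peaks with 34.24 (Delta) and 34.1 (E(spl)) lie on top of each other, and the points spread from 28.81 upwards with 3 above 133.

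The members were also wide. Their median width was 793 bp against 430 bp on the 6 arms, and 10 of 12 exceeded that arm median, as 49.9% of arm peaks did. The exceptions were the third N peak, with 351 bp, and the weak Dl peak, with 287 bp. All 5 E(spl) peaks measured 752 bp or more, and the 5 N peaks ran from 351 to 1043 bp. Across all arm peaks width and score went together, with a Spearman correlation of 0.72, and across the 12 members it was 0.53. Scores and widths are therefore not separate observations, and peaks within a locus are not replicates. E(spl) peaks of nearly the same width could differ in score: 953 bp went with 212.9 and 969 bp with 43.89. The E(spl) widths ran from 752 bp, at the lowest score of 34.1, to 1262 bp, at 143.4.

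**Figure D3:**
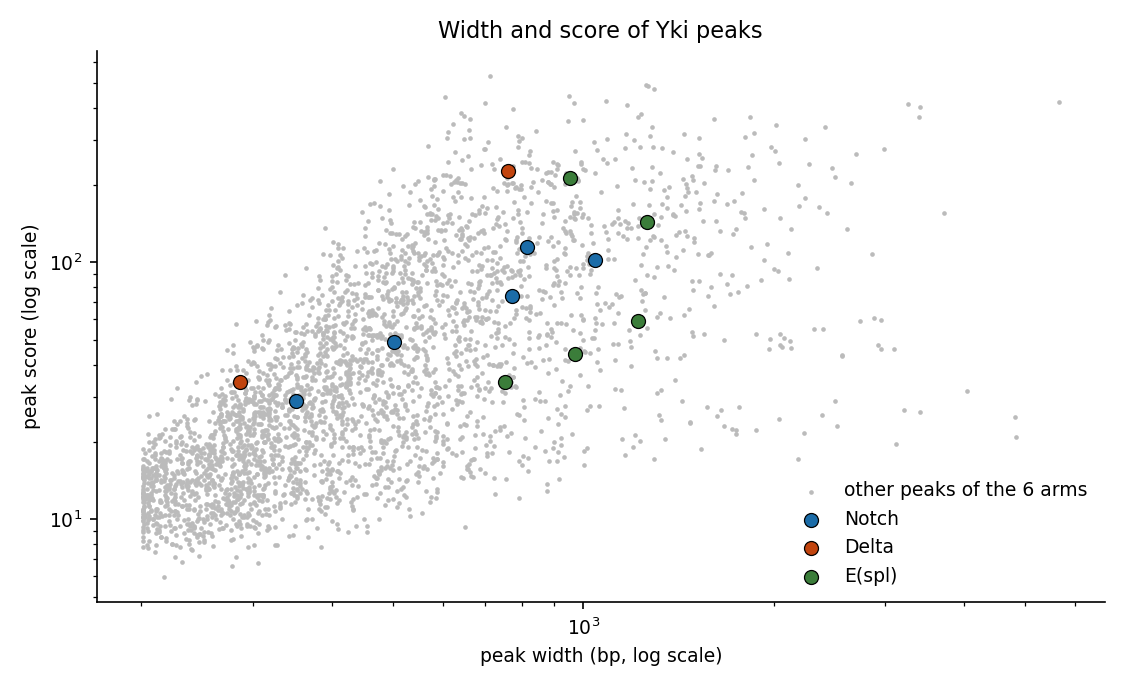
Width (x axis, bp) against score (y axis) of all arm peaks (grey points) and of the 12 members (coloured points), both on log scales. Of the 12, 10 lie to the right of the arm median of 430 bp, and the 3 lower E(spl) points, with scores of 34.1, 43.89 and 58.91, are wide for their scores.

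N and the E(spl) complex held more peaks than most stretches of their length, and Dl did not stand apart. Each interval was set beside all full windows of the same length, laid side by side along the 6 arms. The 5 peaks at N, in 47 kb, were reached or exceeded in 4.54% of 2556 windows, whose mean was 1.25 peaks. The 5 peaks of the E(spl) complex, in 60 kb, were reached or exceeded in 7.34% of 2002 windows, with a mean of 1.6. For the 2 peaks at Dl, in 40 kb, the share was 27.8% of 3005 windows, with a mean of 1.07. By the highest score in the window the order differed. A score at least as high as that of Dl occurred in 3.53% of windows, of E(spl) in 5.79% and of N in 13.5%. Counting only the highest-scoring 25% of peaks, as many as the 3 of N were found in 1.68% of windows, as many as the 2 of E(spl) in 7.49% and at least the 1 of Dl in 19.5%. The 3 of N include its first peak, which passed the limit of 72.8 only narrowly, at 73.67. N thus had 3 of its 5 peaks in the highest-scoring 25% and none in the highest-scoring 10%, Dl had 1 of 2 in both, and E(spl) had 2 of 5 in both.

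**Figure D4:**
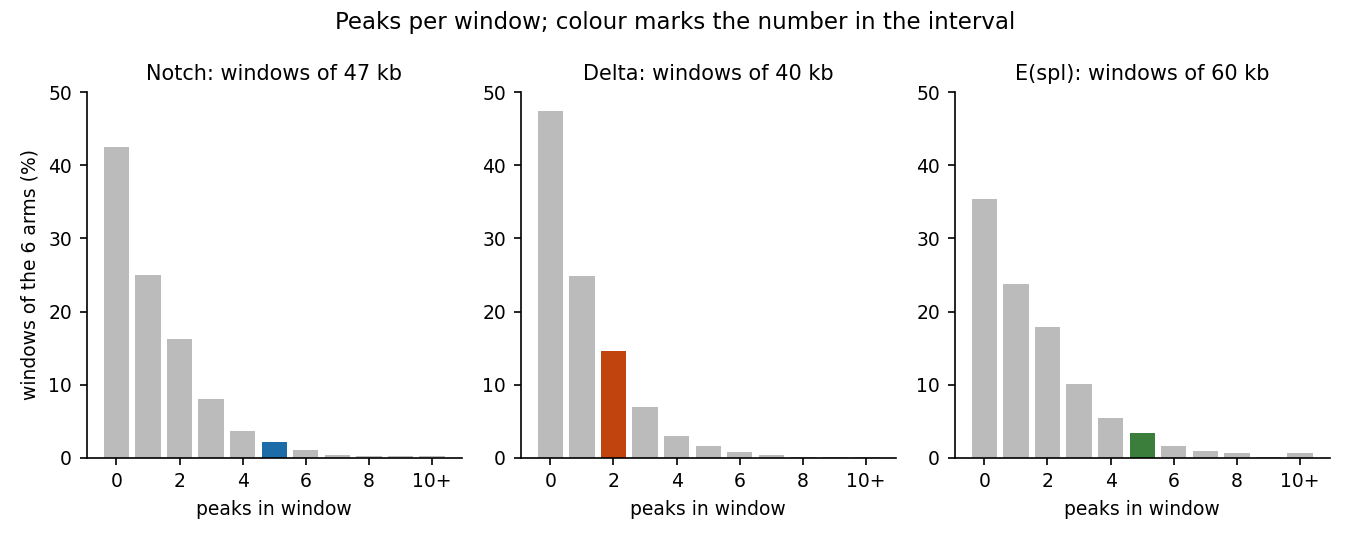
Share of windows of the 6 arms (y axis, percent) by the number of peaks they hold (x axis; 10+ pools windows with 10 or more), for windows as long as the Notch, Delta and E(spl) intervals. The coloured bar marks the number found in the interval, 5, 2 and 5 peaks, and the bars to its right are low for Notch and E(spl).

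Peaks covered 6.59% of the 147 kb of the intervals, 9687 bp in all, compared with 1.49% of the 6 arms up to their last peaks. The covered share was 8.59% in the E(spl) complex, 7.41% at N and 2.62% at Dl. Peak density was 106 per Mb at N, 83.3 at E(spl) and 50 at Dl, against 24.4 on X, 26.5 on 3R and 26.5 over the 6 arms.

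Counting neighbours inside or outside the intervals, 9 of 12 members had another peak within 10 kb, as did 63.4% of arm peaks. The exceptions were the fourth N peak, whose nearest neighbour was 12.5 kb away, and the first 2 E(spl) peaks, at 23.4 and 13.5 kb. The fifth N peak counted only through a peak outside the interval, 3.21 kb away. The median gap over neighbouring arm peaks was 15.8 kb, with quartiles of 2.83 and 48.3 kb, and 7 of the 9 gaps inside the loci lay within these quartiles. The other two were shorter, 0.974 kb between the first peaks at N and 173 bp in E(spl), where 16.1% and 4.72% of arm gaps were shorter still.

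Each locus had 1 flank of 100 kb without a peak. No peak lay in the 100 kb below the N interval, in the 100 kb above the Dl interval or in the 100 kb below the E(spl) interval, while the opposite flanks held 4, 2 and 3 peaks. On the empty side the nearest peak lay 340 kb from the N interval, 104 kb from Dl and 101 kb from E(spl). For Dl and E(spl) the empty flank therefore depends on the limit of 100 kb, and other flank lengths were not tried. Among windows of these lengths with at least 2 peaks, 26.9%, 27% and 28.7% had no peak in 1 or both flanks, for the lengths of N, Dl and E(spl). Of the 6 gaps that bounded the members, 3 exceeded 100 kb, compared with 10.1% of all arm gaps. By length, 46.1% of arm bases lay in gaps over 100 kb. Gaps at least as long as the 344 kb below N held 2.14% of arm bases. Why these flanks were empty was not tested.

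The strongest peaks of Dl and E(spl) had no higher-scoring peak nearby on 3R. The nearest peak on 3R with a higher score lay 1120 kb from the Dl peak and 2080 kb from the E(spl) peak, measured between peak middles. For the peaks in the highest-scoring 5% of the list, the median of this distance was 416 kb with quartiles of 120 and 1060 kb, over 174 arm peaks that had a higher-scoring peak on their arm. The distance of Dl was reached or exceeded by 24.1% of them and that of E(spl) by 12.1%. The distance of E(spl) rests on a narrow margin, since the peak just outside that interval scored 206.07 against 212.9. The strongest N peak, with 114.86, had a higher-scoring peak 197 kb away.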

How the data were processed

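Chromatin from 8 to 16 h embryos was profiled in 3 Yki ChIP and 3 input libraries. The authors deposited 1 peak list with 1 peak score per peak. Per the file headers, the peaks came from MACS on FlyBase release 5. MACS2, BWA, the build BDGP5 and CASAVA (1.7.0.3, 1.7.0.2) appear without parameters in the submitters' processing notes. Library depth and the way libraries were combined are not given in the sources used here.

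Computed here were overlaps with the 3 intervals, ranks, gaps, covered bases and window counts, where windows ran from base 1 to the last peak end of each arm. Counting was checked on simulated data. The named items are all peaks of the intervals, the genes of the rule and the other genes of the complex, with the order of genes taken from the RefSeq table. The members, lists and comparisons were chosen with earlier results of these data known. Alternatives were other overlap rules, interval widths, score limits, backgrounds and merging of close peaks. Promoter motifs, E(spl) protein comparisons and peaks at other Notch pathway genes were not analysed here, for want of sequence and release 5 annotation. Software was matplotlib 3.10.9, scipy 1.17.1, pandas 2.3.3 and numpy 2.4.6 under Python 3.11.15.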

Additional observations from a re-analysis of the deposited data

How the results depend on the processing

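The median score, 66.3, was 46.4 with wider and 53.9 with narrower intervals, and the share of members in the highest-scoring 25%, 50%, was 38.9% and 40%. The median gap between members, 5281 bp, was 3594 bp with wider intervals, 8385 bp in the highest-scoring 50% of the list and 12533 bp in the highest-scoring 25%. The few members leave these values loosely fixed. The share of background peaks above the median score was 25.9% to 27.2%. Counting peaks by their midpoint changed no number. Over windows of the same arm, 4.61% reached or exceeded the count of N, 28.2% that of Dl and 6.68% that of E(spl). With windows shifted along the arm these shares were 4.23%, 27% and 6.71%, compared with 4.54%, 27.8% and 7.34% in the main count. With intervals widened by 10 kb on each side, N and E(spl) had 8 peaks each, and narrowed by 5 kb Dl had 1. In the highest-scoring 25% of the list the counts were 6 in all, 3 at N, 1 at Dl and 2 in E(spl), covering 5605 bp, fewer by construction. The share of windows with at least as many peaks was then 1.68% for N and 19.5% for Dl, and in the highest-scoring 50% it was 2.15% for N, 13.4% for Dl and 1.6% for E(spl). Merging peaks up to 500 bp apart, chosen after seeing the data, left 4 peaks in E(spl) and gave shares of 2.78% for N, 25.4% for Dl and 9.79% for E(spl). No paired analysis was possible because single libraries have no scores in the list, and no single replicate could be omitted. Alternatives for promoter motifs were not run. Depth is unknown, so which weak sites it hid is unknown.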
